A study of Drosophila melanogaster with 42 samples.

Results

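Induction of dominant-negative Dmp53 (DN-Dmp53), a blocking form of the fly p53 protein, was followed in females at day 10 and at day 40, and the measure described here is how far its effect on each mRNA differed between those ages. That measure is the interaction: DN-Dmp53 minus control at day 40, less DN-Dmp53 minus control at day 10, on the log2 scale. The sample titles place 12 of the series' 42 arrays in this comparison, 3 in each of 4 groups. All 12 samples were whole-body RNA of females pooled from many flies, in the yw, w1118 background and on the labels' normal diet, and all of the flies carried both the ELAV-GeneSwitch driver and the construct for DN-Dmp53. Flies labelled p53_knockdown received RU486, which switches the construct on, and flies labelled p53_control received the diluent alone. The label knockdown stands for expression of the dominant-negative protein, not for a loss of p53 mRNA. No array of flies that received RU486 without the construct was analysed here, so that an effect of the drug and an effect of DN-Dmp53 cannot be told apart. The driver acts in neurons while the RNA came from the whole body, and in such samples fewer cells of a type and less RNA per cell cannot be told apart either.

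p53 is a transcription factor known for switching on genes of DNA repair and apoptosis after damage, and dominant-negative forms bind the normal protein and block it. GeneSwitch is a driver protein that becomes active only when the fly eats RU486, so that induced and control flies share 1 genotype. Adult neuronal expression of DN-Dmp53 is known for extending the life span of flies.

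The values are log2 expression levels for sets of probes (probesets), on which 9976 genes could be tested. They cannot fall below a floor of 2.11, where 39.0 to 40.4% of the probesets of each array lie, and the highest value on the 12 arrays is 16.2. A group at the floor gives only an upper limit of its level, so that a change to or from it is a lower bound. The correlation of an array with the other arrays of its group was 0.996 to 0.999. Genes were called at an adjusted p under 0.05 by limma and a fold over 1.5 (0.58 on the log2 scale), and the verbs rose and fell are kept for called simple effects.

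Some arrays stood apart from their groups. At day 10 replicate 3 had the lowest correlation of its group, with 0.996 among controls and 0.997 with DN-Dmp53, beside 0.998 to 0.999 for the 4 other day 10 arrays. At day 40 there were differences in sets of genes. Of 19 genes of male organs, 9 lay over 2 log2 units above the floor on DN-Dmp53 day 40 replicates 1 and 3, where the mean of the list was 4.69 and 4.66. On each of the other 10 arrays 1 of the 19 did, with list means of 2.26 to 2.34 and 15 to 17 genes at the floor. Acp98AB, a gene of the male accessory gland, read 9.83, 2.11 and 9.87 on the 3 DN-Dmp53 day 40 arrays and 2.11 on the 9 others. EbpII read 9.78, 2.11 and 9.45 there, Ebp 9.23, 2.11 and 8.47, and Acp53Ea 7.80, 2.11 and 7.76, all at 2.11 elsewhere. The label of these samples is female, and RNA of male organs, among them the accessory gland, is present on 2 of the 3 DN-Dmp53 arrays at day 40. No gene of this list was called by limma in any of the 3 contrasts, while at day 40 10 of the 19 had an unadjusted p under 0.05. Without both of these arrays, which leaves 1 DN-Dmp53 array at day 40, 24 of the 70 calls at day 40 and 138 of the 191 calls of the interaction were kept. Of the 20 day 40 calls of genes named here, 12 were lost. Calls at day 10, in which these 2 arrays have no part, were also lost in that fit, and how far fewer arrays account for the losses was not tested. On DN-Dmp53 day 40 replicate 2, all 39 genes that rose and all 31 that fell at day 40 lay outside the range of the day 40 controls in the same direction. The choice of genes by the day 40 test favours this order. The array of control day 40 replicate 3 differed from its group in another respect: the mean level of 15 Osiris genes was 3.41 there against 2.59 and 2.49, and that of 22 chorion and vitelline membrane genes was 12.1 against 11.1 and 11.4.

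**Figure D1:**
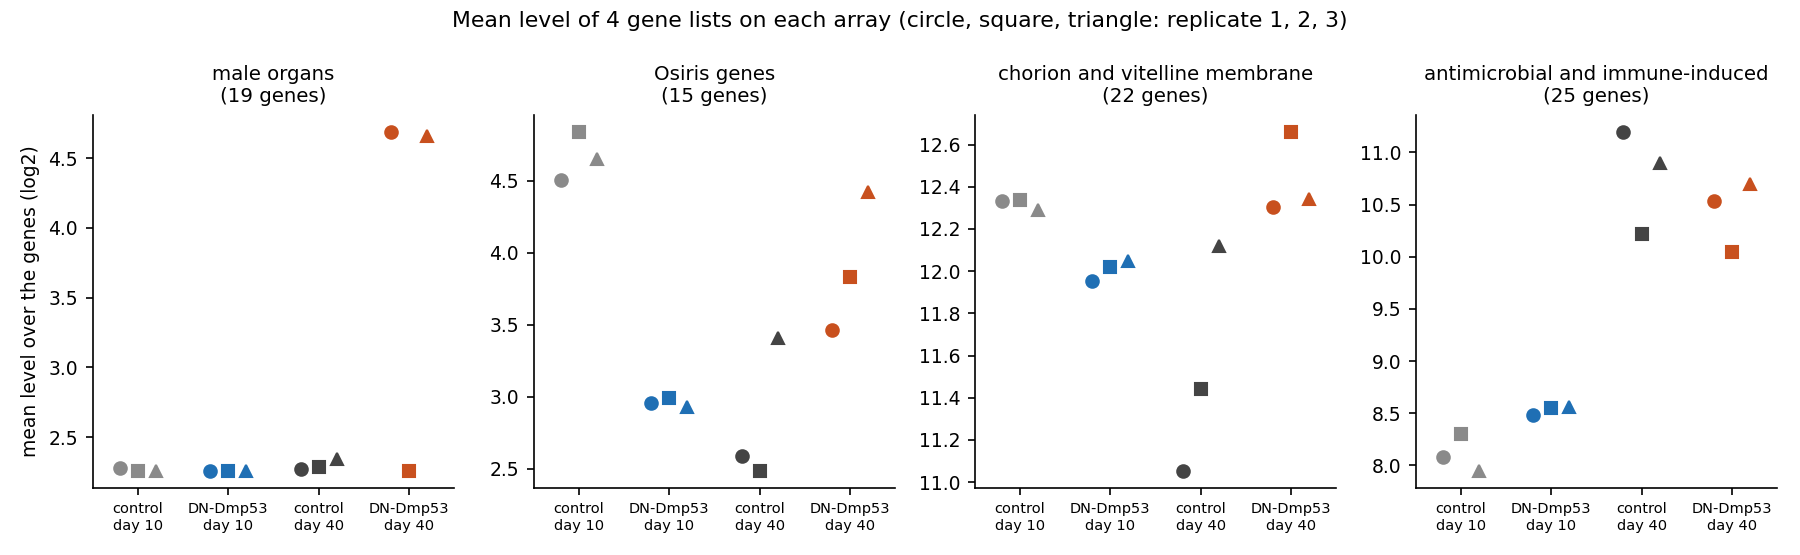
Mean log2 level of 4 gene lists (vertical axes, which do not start at 0) on each of the 12 arrays, by group; symbols stand for the replicate number. The male organ list stands at 4.69 and 4.66 on DN-Dmp53 day 40 replicates 1 and 3 and at 2.26 to 2.34 on the other arrays, and control day 40 replicate 3 lies above its group in the Osiris and chorion lists.

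The mRNA of p53 itself was measured first. p53 read 9.85, 9.89 and 9.72 in day 10 controls and 9.96, 10.16 and 10.02 with DN-Dmp53, a difference of 0.23 (SE 0.07, adjusted p = 0.19 by limma). At day 40 it read 9.76, 9.65 and 9.59 in controls and 9.80, 9.90 and 9.98 with DN-Dmp53, a difference of 0.22 (SE 0.07, adjusted p = 0.179). The groups did not overlap at either age and the interaction was -0.0019 (SE 0.10, adjusted p = 1.0). Whether this probeset reads the mRNA of the construct, which is made in neurons alone, is not stated in the labels or the methods. Sirt1, the deacetylase dSir2 that acts on p53, had an interaction of 0.14 (SE 0.06, adjusted p = 0.313). Of 22 genes for p53, damage kinases and apoptosis, 0 were called in any contrast by limma, or by the methods' t-test at either age, and 0 above and 1 below 0 had an unadjusted interaction p under 0.05. Their median interaction was 0.12 against 0.0073 over all genes tested. The genes rpr, hid, Xrp1, Drice, Diap1, RnrS and spn-A of this list were not matched to a probeset. The 22 do not include them, and their response was not tested.

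The interaction was called for 191 genes, 1.91% of those tested: 114 above 0 (1.14%) and 77 below 0 (0.772%). At an unadjusted p under 0.05 there were 997 and 855. DN-Dmp53 raised 91 genes (0.912%) and lowered 105 (1.05%) at day 10, 1.96% of genes in all, and raised 39 (0.391%) and lowered 31 (0.311%) at day 40, 0.702% in all. Most of the positive interactions were falls that were seen at day 10 alone. Of the 114 genes above 0, 80 fell at day 10 and were not called at day 40, 18 rose at day 40 alone, 15 passed neither simple test, and 1, the cuticle gene TwdlF, fell at day 10 and rose at day 40. Of the 77 genes below 0, 33 rose at day 10 alone, 16 fell at day 40 alone, 27 passed neither and 1, CG16898, rose at day 10 and fell at day 40. The median day 10 effect was -1.93 in the positive set and 0.59 in the negative set, and the median day 40 effects were 0.39 and -0.40. Centring each array on its median turned the split to 118 above and 307 below 0, and shifted the median interaction of all probesets from 0.0008 to -0.107. With the replicate number within an age as a block, 213 genes were called (2.14%), 111 above (1.11%) and 102 below 0 (1.02%). The block kept 126 of the 191 interaction calls, 131 of the 196 calls at day 10 and 25 of the 70 at day 40. The methods' t-test (p below 0.01 without adjustment, over 1.5-fold) called 169 genes higher (1.8%) and 127 lower (1.35%) at day 10, 3.15% in all, and 43 higher (0.446%) and 43 lower (0.446%) at day 40, 0.893% in all.

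The group that stood apart was usually the day 10 control. Its mean was the highest of the 4 groups in 98 of the 114 positive genes, and its 3 arrays lay above the 9 others in 86. In the negative set its mean was the lowest in 75 of 77 genes and its 3 arrays lay below the 9 others in 63. In 45 of the 114 the other 3 group means all lay within 1 log2 unit of the floor, so that for these genes an effect at day 40 could not have been seen in the direction of a fall. In 6 of the 114 both day 40 groups were at the floor on all arrays, and in 13 at least 1 group was.

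**Figure D2:**
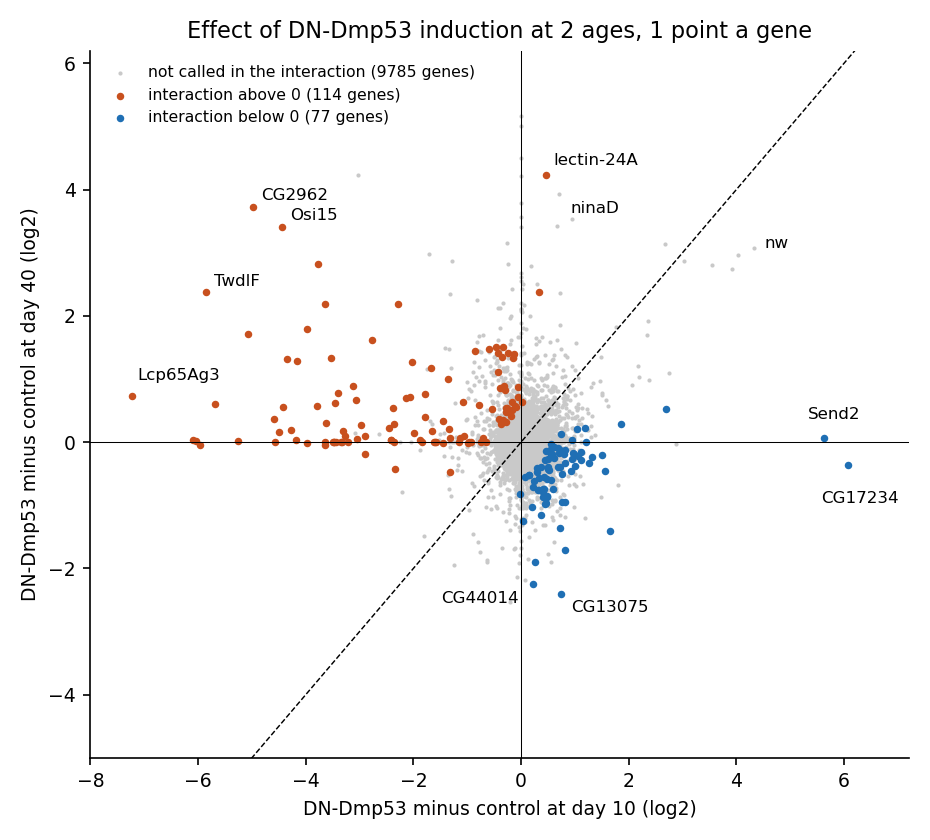
Each point is 1 of the 9976 genes tested, with the DN-Dmp53 minus control difference at day 10 on the horizontal and at day 40 on the vertical axis (log2); the dashed line marks equal effects. The 114 genes above 0 lie mostly along a day 40 effect of 0 to the left, and Send2 and CG17234 lie along it to the right.

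Genes of the cuticle made up the largest group of the lists examined. The insect cuticle is built of chitin and of structural proteins from large families, among them the Tweedle (Twdl) proteins and the Cpr proteins that bind chitin, and most are known from larval and pupal stages. Of 106 cuticle protein genes with a probeset, 79 were tested, as the filter keeps a probeset that lies above the floor in any 1 group. Of these 79, 22 had an interaction called above 0 and 0 called below, and 25 fell and 2 rose at day 10. At day 40 TwdlF alone was called by limma (6 above and 0 below 0 at an unadjusted p under 0.05, and 1 gene by the methods' t-test). The list's median interaction was 0.26, beside 0.0073 over all genes tested. The 22 were found in each family: 11 of 19 Twdl genes, 8 of 49 Cpr genes, 2 of 5 Lcp65 genes and 1 of 6 others. In all 22 the 3 day 10 control arrays lay above the 9 others. In 17 of the 22 the means of the other 3 groups were within 1 log2 unit of the floor, so that a fall at day 40 could not have been seen. The counts thus rest largely on the day 10 control group. The median day 40 effect of the 22 was 0.02.

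TwdlN read 8.19, 8.39 and 7.91 on the day 10 control arrays. With DN-Dmp53 at day 10 it read 2.15, 2.12 and 2.13, and on the 6 day 40 arrays 2.12 to 2.15. Its level was thus near the floor on every array but those of young control flies. At day 10 it fell by 6.03, to within 0.1 of the floor, and its interaction was 6.05 (SE 0.13, adjusted p = 1.29e-07). TwdlB behaved alike, with 8.50, 7.88 and 8.27 in day 10 controls and 2.11 to 2.18 on the 9 others (interaction 6.13, SE 0.18, adjusted p = 4.29e-07). TwdlM stood at 8.78, 8.14 and 8.0 in day 10 controls and at 2.58 to 4.15 on the other arrays (interaction 6.29, SE 0.50, adjusted p = 0.000386). TwdlG, TwdlL and the genes Cpr64Ad and Cpr51A, which code for chitin-binding cuticle proteins, had interactions of 5.66, 5.28, 4.96 and 4.87. The smallest called interaction of the list was the 0.65 of Cpr100A.

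Lcp65Ag3, a larval cuticle protein gene with near-identical copies beside it, read 10.24, 10.12 and 9.65 in day 10 controls. With DN-Dmp53 at day 10 it read 2.69, 3.20 and 2.46, and it fell by 7.22 (SE 0.22, adjusted p = 3.23e-07). At day 40 the controls read 2.11, 2.13 and 2.35 and the DN-Dmp53 flies 2.67, 3.05 and 3.07, a difference of 0.74 that was not called (adjusted p = 0.152). All day 40 arrays and the day 10 DN-Dmp53 arrays thus lay far below the day 10 controls, and the interaction was 7.96 (SE 0.31, adjusted p = 2.94e-06).

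TwdlF was the exception, changing in opposite directions at the 2 ages. It read 7.95, 8.41 and 7.51 in day 10 controls and 2.11 on all 3 DN-Dmp53 arrays, and fell by 5.85 or more (SE 0.40, adjusted p = 9.06e-05). At day 40 all 3 controls were at the floor of 2.11 and the DN-Dmp53 arrays read 3.74, 4.23 and 5.48, a rise of at least 2.38 (SE 0.40, adjusted p = 0.0427). The interaction was at least 8.22 (SE 0.56, adjusted p = 0.000125). The day 40 rise was called in 2 of the 12 fits that leave out 1 array and was lost with the replicate number as a block, while the fall and the interaction held in all of them.

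The same pattern of levels was set beside the rest of the series. TwdlN averaged 7.38 ± 0.43 (SD, n = 3) with dSir2 overexpression and 7.41 ± 0.23 in its controls at day 10, and 6.78 ± 1.44 under dietary restriction. At day 40 it averaged 7.79 ± 1.04 under dietary restriction in the same background and 2.14 ± 0.03 in the dSir2 controls. Canton-S controls stood at 2.47 ± 0.47 at day 10 and at 2.14 ± 0.01 at day 40. Among the day 10 groups of the yw, w1118 background, the DN-Dmp53 flies at 2.13 ± 0.02 were the one group near the floor.

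Cht7, Cda4, verm and Gasp, 4 genes that act on chitin or bind it, were picked after their values had been seen and stand for no list. Cht7, a chitinase, read 6.30, 6.48 and 6.39 in day 10 controls, 4.11, 3.42 and 3.32 with DN-Dmp53, 2.29, 2.65 and 3.33 in day 40 controls and 3.64, 4.90 and 4.62 with DN-Dmp53 at day 40. Its interaction was 4.40 (SE 0.53, adjusted p = 0.00464), and it fell by 2.77 at day 10, with a day 40 difference of 1.63 that was not called (adjusted p = 0.0851). The chitin deacetylase gene Cda4 had an interaction of 3.38 (adjusted p = 0.00659) and the deacetylase gene verm, which shapes the tracheal tubes, one of 2.85 (adjusted p = 0.0134, and 0.0596 with the replicate block). Gasp, a chitin-binding protein, read 9.12 to 9.58 in day 10 controls and 7.84 to 8.02 with DN-Dmp53, then 7.13 to 8.13 and 8.48 to 8.78 at day 40 (interaction 2.36, adjusted p = 0.0102). Without DN-Dmp53 day 40 replicates 1 and 3, which hold the male RNA, the call of Gasp was lost and those of Cht7, Cda4 and verm held.

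**Figure D3:**
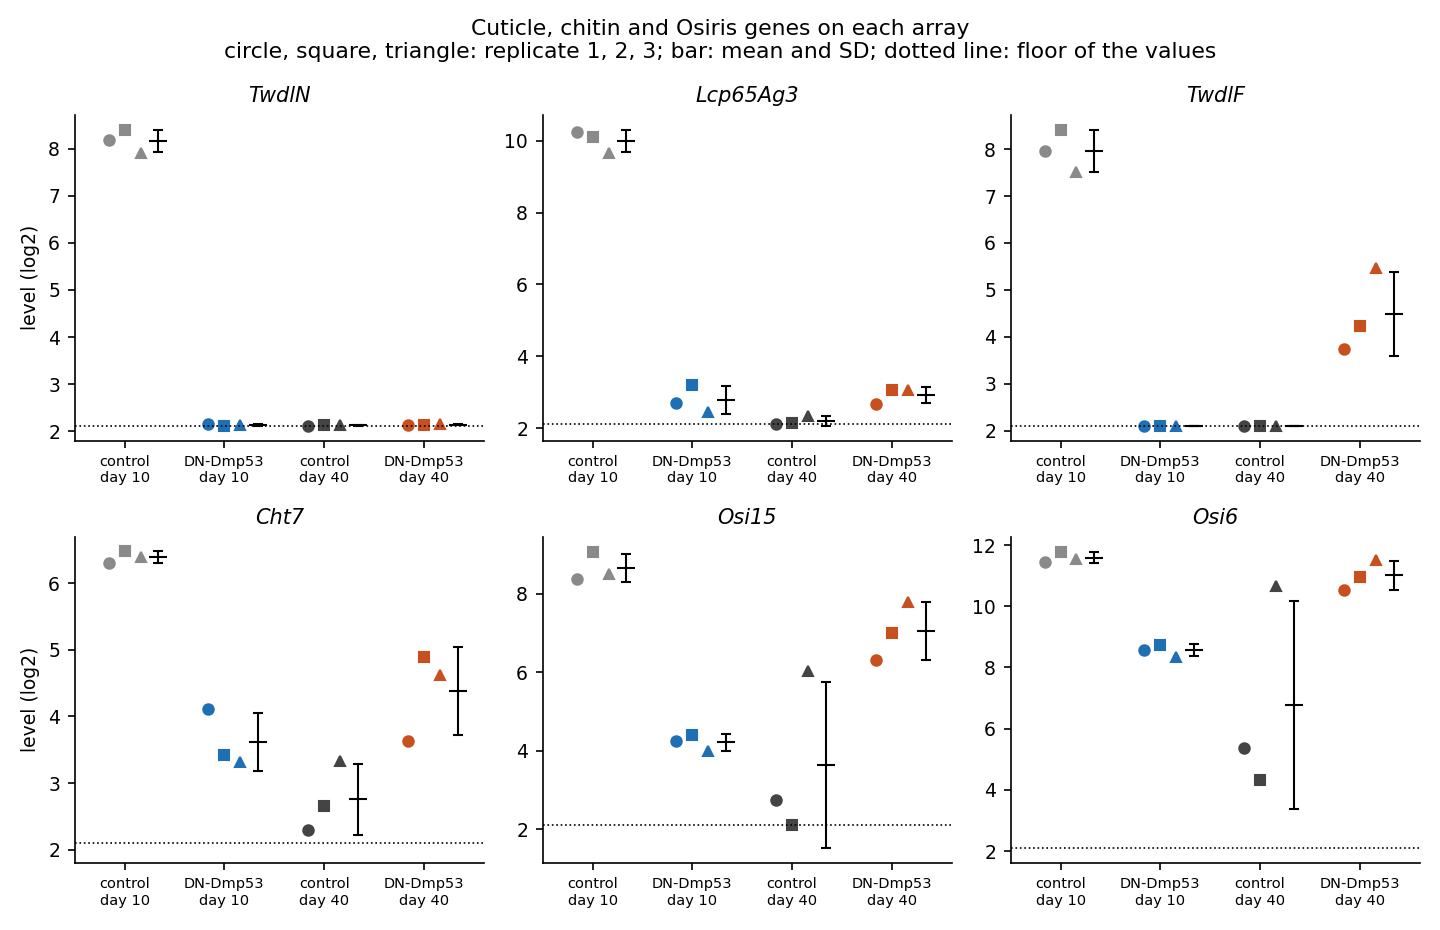
Log2 level of 6 genes (vertical axes, each with its own range) on each array, by group; symbols stand for the replicate number, bars for the mean and SD, and the dotted line for the floor of 2.11. TwdlN is high in day 10 controls and within 0.1 of the floor on the 9 other arrays, TwdlF is also above the floor with DN-Dmp53 at day 40, and the Osiris genes are higher on control day 40 replicate 3 than on the other day 40 controls.

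Osiris genes are a family of insect genes that is expressed in epithelia while they form cuticle. Of 24 with a probeset, 15 passed the filter and were tested. Of these 15, 5 had an interaction called above 0 and 0 called below, and 5 fell at day 10. Over all genes tested, 1.14% were called above 0 in the interaction and 1.05% fell at day 10. In 8 of the 15 the means of the 3 groups other than the day 10 control lay within 1 log2 unit of the floor. For these a fall at day 40 could not have been seen. At day 40 0 were called by limma or by the methods' t-test (5 above and 0 below 0 at an unadjusted p under 0.05). The list's median effect was -1.33 at day 10 and 0.75 at day 40, and its median interaction was 2.52, beside 0.0073 over all genes tested. Osi15 read 8.39, 9.07 and 8.52 in day 10 controls and 4.25, 4.41 and 3.99 with DN-Dmp53, and fell by 4.44 (SE 0.90, adjusted p = 0.0445). At day 40 it read 2.75, 2.11 and 6.04 in controls and 6.32, 7.01 and 7.80 with DN-Dmp53, groups that did not overlap but whose difference of 3.41 was not called (adjusted p = 0.115). Its interaction was 7.85 (SE 1.27, adjusted p = 0.021). Osi14, Osi9, Osi20 and Osi19 had interactions of 5.82, 5.77, 5.44 and 4.01, the third of which was lost with the replicate block (adjusted p = 0.0574). Osi6, the brightest member, was not called (interaction 7.25, SE 1.92, adjusted p = 0.116): its day 40 controls read 5.36, 4.32 and 10.65. Without control day 40 replicate 3, 6 Osiris genes were called in the interaction and 3 at day 40. Without control day 10 replicate 1, or any 1 of the 3 DN-Dmp53 day 10 arrays, 1 was called in the interaction, and without control day 10 replicate 2, 2 were.

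The other genes with the largest positive interactions have no role given here. CG2962 read 10.04, 10.19 and 9.88 in day 10 controls and 6.40, 5.53 and 3.24 with DN-Dmp53, then 3.01, 4.99 and 3.76 in day 40 controls and 7.11, 7.75 and 8.09 with DN-Dmp53. Its groups did not overlap at either age, and its interaction of 8.71 (SE 1.11, adjusted p = 0.00575) was the largest called. It fell by 4.98 at day 10 and differed by 3.73 at day 40, which missed the threshold (adjusted p = 0.0662). CG30413 had the same order of groups, with means of 8.49, 4.72, 4.23 and 7.05 in day 10 controls, day 10 DN-Dmp53, day 40 controls and day 40 DN-Dmp53 (interaction 6.58, adjusted p = 0.00466). CG9083 and CG17290 had interactions of 6.79 and 5.92, with day 10 falls to within 0.1 of the floor.

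The largest negative interactions were those of serine peptidase genes of the spermatheca, the female organ that stores sperm. CG17234 read 3.54, 2.85 and 2.54 in day 10 controls and 9.0, 8.55 and 9.63 with DN-Dmp53, a rise of 6.08 (SE 0.42, adjusted p = 0.000103). At day 40 it read 7.72, 7.96 and 7.92 in controls and 7.45, 8.29 and 6.79 with DN-Dmp53, groups that overlapped. Its interaction was -6.44 (SE 0.60, adjusted p = 0.000997). Send2, a spermathecal endopeptidase, read 4.05, 4.35 and 4.01 in day 10 controls and 9.66, 9.22 and 10.41 with DN-Dmp53, and 6.90, 7.51 and 7.42 against 6.86, 8.45 and 6.72 at day 40. The rise of 5.63 at day 10 (adjusted p = 0.000338) had no counterpart at day 40 (0.06, adjusted p = 1.0), and the interaction was -5.57 (SE 0.67, adjusted p = 0.00464). Of 7 spermathecal genes these 2 were called in the interaction, in every setting run, and 3 rose at day 10, the third being hll with 1.04 (adjusted p = 0.0341, and 0.0807 with the replicate block). Levels of CG17234 in the other day 10 groups ran from 2.46 ± 0.04 (SD, n = 3) in dSir2 controls to 8.86 ± 0.88 in Canton-S flies under dietary restriction.

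The genes tim and MtnA rose at day 10 and were not called at day 40. The clock gene tim, the 1 of 10 clock genes that rose at day 10, whose protein partners period to repress its own transcription, read 7.87, 8.32 and 7.98 in day 10 controls and 10.00, 9.98 and 9.76 with DN-Dmp53, a rise of 1.86 (SE 0.13, adjusted p = 0.000102). At day 40 it read 9.21, 9.40 and 9.40 against 9.78, 9.51 and 9.6, a difference of 0.29 that was not called although the groups did not overlap. The interaction of tim was -1.57 (SE 0.18, adjusted p = 0.00362). vri, a clock repressor, was the other clock gene called in the interaction (interaction -1.17, adjusted p = 0.0329, and 0.0614 with the replicate block), with a difference of 0.43 at day 10 and of -0.74 at day 40, neither of which was called. The time of day of collection is not stated in the labels or the methods. MtnA, a metallothionein that binds metals, read 12.46, 12.52 and 12.27 in day 10 controls and 13.34 to 13.77 with DN-Dmp53, and 13.60 to 14.11 on the 6 day 40 arrays. Its interaction was -0.96 (SE 0.18, adjusted p = 0.0383), and it was kept in 3 of the 12 fits that leave out 1 array.

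Of 16 genes that are named in the study's text as shared at day 10 with other long-lived flies, 12 were matched to a probeset and tested, and takeout, CG17325, Myo61F and IM3 were not matched. Among the 12, 7 rose and 1 fell at day 10 by limma. By the methods' t-test 11 were higher and 1 lower at day 10, beside 1.8% and 1.35% of all genes tested. At day 40 0 were called by limma or by the methods' t-test (4 above and 0 below 0 at an unadjusted p under 0.05 by limma). The 12 genes were chosen on these day 10 arrays, so that their day 10 values are no independent evidence. Their median effect was 0.81 at day 10 and 0.34 at day 40, and 2 had a called interaction, both below 0. CG14687 read 8.65 to 8.95 in day 10 controls and 9.44 to 9.55 with DN-Dmp53, then 9.28 to 9.48 and 9.14 to 9.45 at day 40 (interaction -0.79, adjusted p = 0.0322, and 0.0506 with the replicate block). Syngr, a protein of synaptic vesicles, rose by 0.95 at day 10 and differed by 0.04 at day 40 (interaction -0.92, adjusted p = 0.0473, and 0.0588 with the block). CG3091 had an interaction of -0.91 that was not called (adjusted p = 0.0758) but passed with the block (0.0408). CG6870 rose by 1.31 at day 10 (adjusted p = 0.0196, and 0.0725 with the block) and differed by 0.88 at day 40 (adjusted p = 0.0986). CG10553 rose by 0.84 (adjusted p = 0.0214, and 0.0768 with the block) and differed by 0.45, and the 2 genes had interactions of -0.43 and -0.39 that were not called. CG13928 and Mipp1 rose by 0.84 and 0.79 at day 10 (adjusted p = 0.0302 and 0.0407, the latter 0.0547 with the block). They differed by 0.60 and 0.63 at day 40 (adjusted p = 0.106 and 0.101), without overlap of the groups at either age. Their interactions of -0.24 and -0.16 were not called. CG42249 and CG5612 were called by limma in no contrast without the block, with day 10 differences of 0.70 (adjusted p = 0.0417 with the block) and 0.64. daw, an activin-like ligand, and Nplp3, a neuropeptide precursor, were called by limma in no contrast, with day 10 differences of 0.68 and 0.86. Lsp2, a larval serum protein, fell by 3.09 at day 10 (12.88 to 13.09 in controls, 9.6 to 10.07 with DN-Dmp53) and differed by 0.15 at day 40, with an interaction of 3.23 (adjusted p = 0.1).

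**Figure D4:**
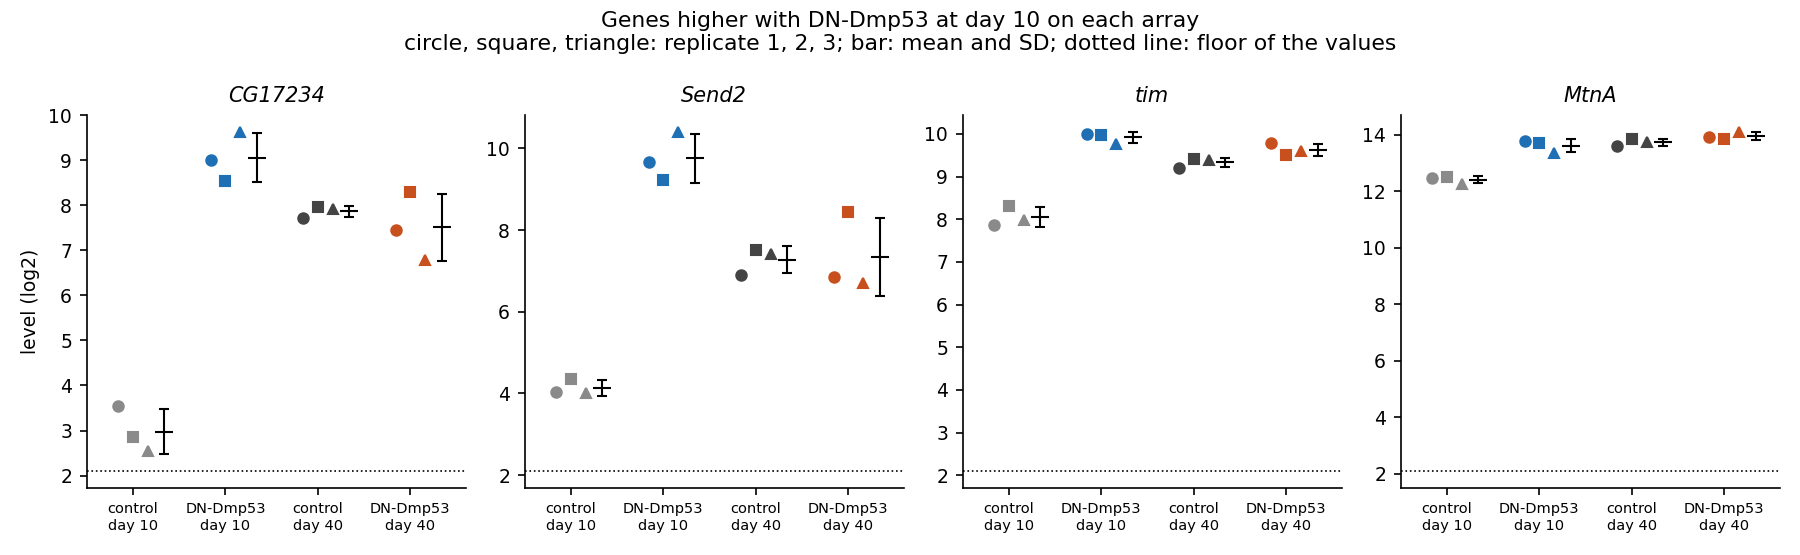
Log2 level of CG17234, Send2, tim and MtnA (vertical axes, each with its own range) on each array, by group; symbols stand for the replicate number, bars for the mean and SD, and the dotted line for the floor. In all 4 genes the 3 day 10 control arrays lie below the 9 others.

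Among other genes with large negative interactions, CG18609 rose by 2.70 at day 10 (8.31 to 8.46 in controls, 10.99 to 11.18 with DN-Dmp53) and differed by 0.52 at day 40, where both groups read 10.29 to 11.53 (interaction -2.18, adjusted p = 0.0112, and 0.0556 with the replicate block). CG3739 rose by 1.65 at day 10 (adjusted p = 0.017, and 0.0702 with the block) and differed by -1.41 at day 40 (adjusted p = 0.0506), and its interaction was -3.07 (SE 0.37, adjusted p = 0.00464). CG16898 passed both tests in opposite directions, with 0.76 at day 10 (adjusted p = 0.0379) and -0.95 at day 40 (adjusted p = 0.0361), and had an interaction of -1.71 (adjusted p = 0.00481). Its day 40 controls read 8.57 to 8.82, above the 9 other arrays at 6.61 to 7.86. Both of its simple effects were lost with the block and its interaction was kept (adjusted p = 0.0459). CG12780, CG4267 and CG14495 had interactions of -2.08, -2.02 and -1.76, all lost with the block (adjusted p = 0.0522, 0.0792 and 0.0671).

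Of the 31 genes that fell with DN-Dmp53 at day 40, 17 had a called interaction. The day 40 control mean was the highest of the 4 groups in all 17, an order that this choice of genes favours. Among the other falls, 4 genes fell at both ages and had no called interaction. CG44014 read 3.47, 4.25 and 3.85 in day 10 controls and 4.24, 3.94 and 4.03 with DN-Dmp53, groups that overlapped. At day 40 it read 9.15, 8.94 and 8.53 in controls and 6.70, 6.45 and 6.75 with DN-Dmp53, and fell by 2.24 (SE 0.22, adjusted p = 0.00747). Its level was thus higher on every day 40 array than on every day 10 array, by less in the DN-Dmp53 flies, and its interaction was -2.46 (SE 0.31, adjusted p = 0.00548, and 0.0516 with the replicate block). CG13075 read 8.78, 7.86 and 8.04 in day 40 controls and 6.09, 5.43 and 5.96 with DN-Dmp53, and fell by 2.40 (adjusted p = 0.0244, and 0.0595 with the block), against 2.34 to 3.10 and 3.15 to 4.0 at day 10 (interaction -3.13, SE 0.47, adjusted p = 0.0152, and 0.0543 with the block). CG42397 read 10.85, 11.15 and 10.33 against 9.29, 8.76 and 9.16 at day 40, and fell by 1.71 (adjusted p = 0.0159, and 0.0622 with the block), and its interaction was -2.52 (adjusted p = 0.00362). CG16995 fell by 1.89 (adjusted p = 0.0275, and 0.0527 with the block) with an interaction of -2.16 (adjusted p = 0.0328, and 0.059 with the block), and that call was kept in 5 of the 12 fits without 1 array. CG34040 and GstD8, a glutathione S-transferase, fell by 2.54 and 2.19 at day 40 (adjusted p = 0.0489 and 0.0427, and 0.061 and 0.106 with the block), and their interactions were not called. Without DN-Dmp53 day 40 replicates 1 and 3 the day 40 calls of CG44014, CG42397 and CG34040 were kept, and those of CG13075, CG16995, CG16898 and GstD8 were lost (adjusted p = 0.0641, 0.0873, 0.0576 and 0.109). Fitted on the 6 day 40 arrays alone, 1 gene was called at day 40, above 0. All 20 day 40 calls of genes named here were lost in that fit, so that they rest on the spread shared with the day 10 arrays.

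Other genes rose with DN-Dmp53 at day 40 alone. The C-type lectin gene lectin-24A read 2.60, 2.57 and 3.53 in day 40 controls and 6.80, 7.60 and 7.0 with DN-Dmp53, a rise of 4.23 (SE 0.40, adjusted p = 0.00747). At day 10 it read 3.86, 4.52 and 3.43 against 4.68, 4.68 and 3.82, groups that overlapped, and its interaction was 3.78 (SE 0.56, adjusted p = 0.0145). The dSir2 controls, also on the diluent alone, averaged 7.39 ± 0.25 (SD, n = 3) at day 40, above all 3 of the DN-Dmp53 controls. CG7829, named after its values were seen, read 3.75, 3.79 and 3.99 in day 40 controls and 5.88, 6.55 and 6.25 with DN-Dmp53, and 6.86 to 7.56 on the 6 day 10 arrays (day 40 rise 2.38, adjusted p = 0.00188; interaction 2.05, adjusted p = 0.00464). ninaD, a scavenger receptor for the uptake of carotenoids, read 2.61, 4.10 and 3.18 in day 40 controls and 6.27, 7.91 and 7.5 with DN-Dmp53, a rise of 3.93 (SE 0.46, adjusted p = 0.0159). Its interaction of 3.22 missed the threshold (adjusted p = 0.0517) and passed with the replicate block (0.0136). CG9825 rose by 3.43 at day 40 (adjusted p = 0.0317), with an interaction of 2.75 that passed with the block alone (adjusted p = 0.117 without it and 0.0426 with it). Fitted on the 6 day 40 arrays alone, the day 40 rises of lectin-24A, CG7829, ninaD and CG9825 were not called. The day 40 rises of lectin-24A, CG7829 and ninaD were kept without DN-Dmp53 day 40 replicates 1 and 3, and that of CG9825 was lost (adjusted p = 0.0576).

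**Figure D5:**
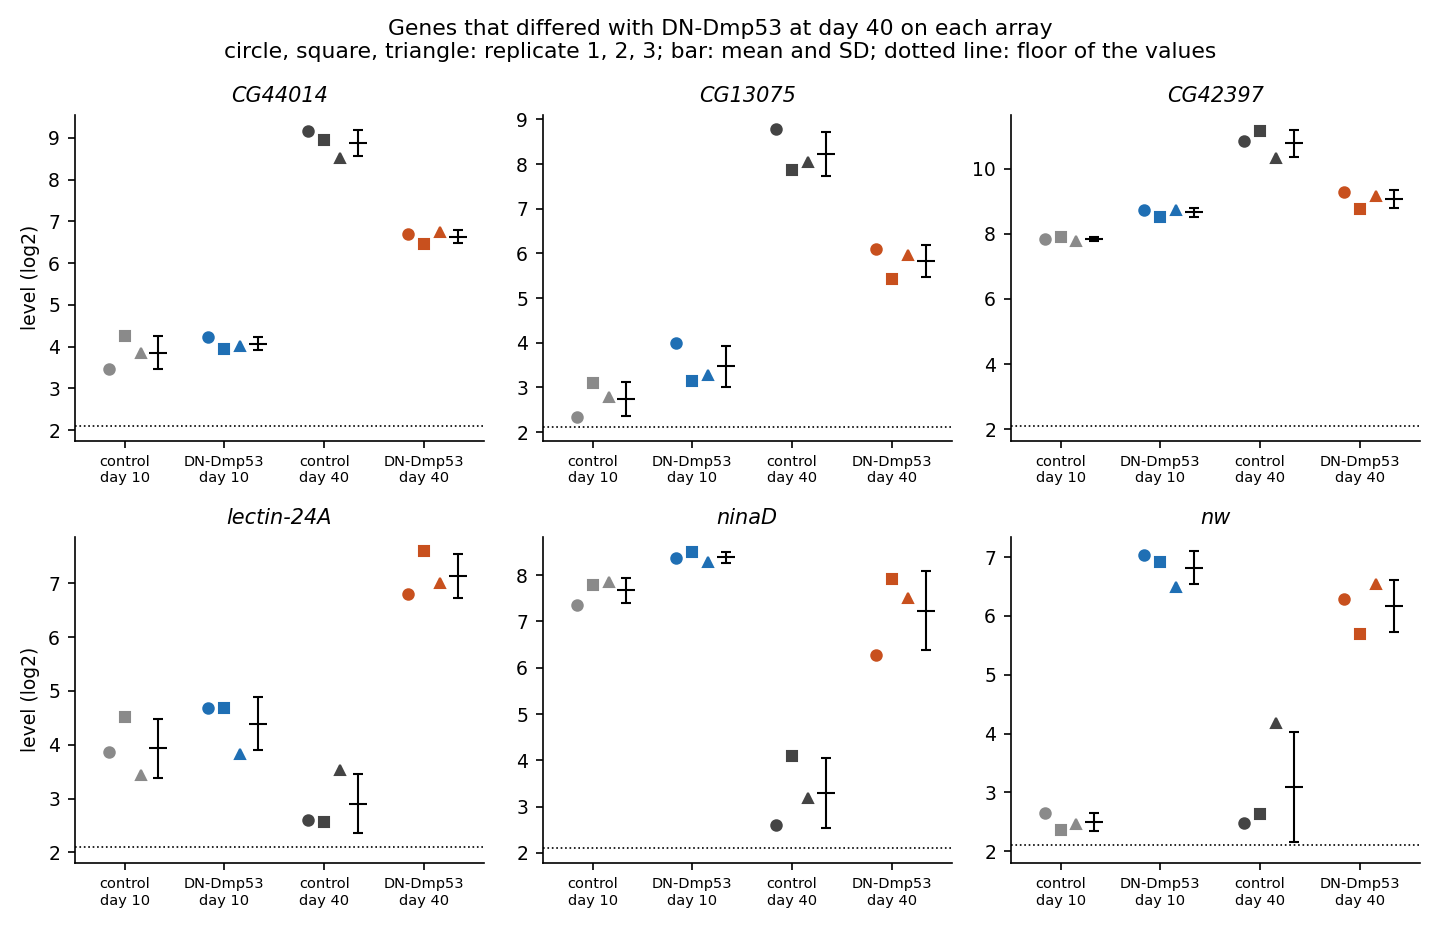
Log2 level of 6 genes called at day 40 (vertical axes, each with its own range) on each array, by group; symbols stand for the replicate number, bars for the mean and SD, and the dotted line for the floor. CG44014, CG13075 and CG42397 are highest in day 40 controls, lectin-24A and ninaD are lowest there, and nw is higher with DN-Dmp53 at both ages.

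Some genes were called the same way at both ages. Of the 9 genes called at day 10 and at day 40, 3 rose and 4 fell at both and 2 went opposite ways. Over all genes tested, 1.96% were called at day 10 and 0.702% at day 40. A gene that was not called at 1 age may still have differed there. nw, a C-type lectin gene named for narrow wings, read 2.66, 2.36 and 2.47 in day 10 controls and 7.03, 6.91 and 6.50 with DN-Dmp53, and 2.48, 2.64 and 4.17 against 6.28, 5.69 and 6.54 at day 40. Its rises were 4.32 (adjusted p = 0.00102) and 3.08 (adjusted p = 0.0244), and the interaction of -1.25 (SE 0.60) was not called (adjusted p = 0.383). Spn43Aa, a serpin that inhibits serine peptidases, rose by 2.67 (adjusted p = 0.0336, and 0.0532 with the replicate block) and 3.13 (adjusted p = 0.0384, and 0.0527 with the block), with an interaction of 0.46 (SE 0.71, adjusted p = 0.839). Without DN-Dmp53 day 40 replicates 1 and 3 the day 40 calls of nw and Spn43Aa were lost (adjusted p = 0.144 and 0.179). The 95% intervals of these interactions ran from -2.62 to 0.13 for nw and from -1.16 to 2.08 for Spn43Aa, wide enough to hold differences between the ages of over 1 log2 unit. The developmental regulator rib and the Notch pathway gene Tom rose at day 10 by 4.03 and 3.92 and differed by 2.97 and 2.74 at day 40, which was not called (adjusted p = 0.0818 and 0.0812). The block ended the day 10 calls of both (adjusted p = 0.0785 and 0.0796).

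Eggshell genes leaned one way, though most did not pass the test. All 22 chorion and vitelline membrane genes had an interaction above 0, with a median of 1.18, and 1 was called. At an unadjusted p under 0.05 by limma, 18 were above 0 in the interaction and 18 at day 40, with 0 below in either. Of all 9976 genes tested, 997 were above and 855 below 0 in the interaction, and 1077 above and 744 below at day 40. In the fit of all 14 groups 12 were called in the interaction and 12 at day 40. The list's median effect was -0.30 at day 10 and 0.93 at day 40. yellow-g2, which acts in the vitelline membrane, read 11.35, 11.46 and 11.41 in day 10 controls, 11.01, 11.25 and 11.27 with DN-Dmp53, 10.47, 10.82 and 11.47 in day 40 controls and 12.13, 12.47 and 12.38 with DN-Dmp53 at day 40. It rose by 1.41 at day 40 (adjusted p = 0.0361 by limma), a call that was lost with the replicate block. Its interaction was 1.64 (SE 0.31, adjusted p = 0.0389), kept in 2 of the 12 fits without 1 array. Cp36, a major chorion protein, read 14.18, 14.36 and 15.01 in day 40 controls and 15.26 to 15.50 with DN-Dmp53, with an interaction of 1.18 that was not called (adjusted p = 0.0758). Without control day 40 replicate 3, 12 of the 22 were called in the interaction and 11 at day 40, and without control day 40 replicate 1, 2 and 2. In each other fit that left out 1 array, and without a filter, 0 were called in either contrast. The share of mature egg chambers in the flies was not measured, and its part in these values was not tested.

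Immune genes leaned the other way. Of 25 antimicrobial and immune-induced genes, 4 had an interaction above 0, and the median was -0.64 against 0.0073 over all genes tested. By limma 1 was called below 0, beside 0.772% of all genes tested, or 5 with the replicate block, beside 1.02%. Without a filter 0 were called, and the fits that left out 1 array gave 0 to 2. BomS6, a short secreted peptide induced by the Toll pathway, read 11.20, 11.60 and 10.91 in day 10 controls, 12.30, 12.32 and 12.24 with DN-Dmp53, 13.62, 13.41 and 13.65 in day 40 controls and 13.38, 13.11 and 13.55 with DN-Dmp53 at day 40. It rose by 1.05 at day 10 and its interaction was -1.27 (adjusted p = 0.0393), kept in 4 of the 12 fits without 1 array. The 7 peptidoglycan recognition proteins, which detect bacteria, had a median interaction of -0.90 with 0 called by limma, or 1 with the block, and 3 below 0 at an unadjusted p under 0.05. Idgf1, a chitinase-like growth factor named after its values were seen, rose by 1.0 at day 10 and had an interaction of -1.38 (adjusted p = 0.033).

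In other lists 1 or 2 genes were called, and those counts describe the genes rather than the list. Of 79 cytochrome P450 genes 2 were called, near the 1.91% of all genes tested, both below 0: Cyp4ac3 with an interaction of -1.22 (adjusted p = 0.0423, and 0.0674 with the replicate block) and Cyp6a13 with -0.67 (SE 0.07, adjusted p = 0.00307). Cyp6a13 read 7.98 to 8.06 and 8.16 to 8.20 at day 10, and 9.79 to 9.99 in controls against 9.35 to 9.47 with DN-Dmp53 at day 40. Among 65 glutathione and UDP-glycosyl transferases 1 was called, also near that share, Ugt36A1 with an interaction of -0.92 (adjusted p = 0.0375, and 0.0738 with the block, under which 1 other member was called above 0). Of 34 odorant-binding protein genes 2 were called, Obp19c with 1.97 (adjusted p = 0.0383, and 0.0835 with the block) and Obp18a with -0.77 (adjusted p = 0.00221). The muscle LIM protein gene Mlp60A, 1 of 22 sarcomere genes, had an interaction of 0.66 that was lost with the block (adjusted p = 0.0718), under which 2 other members were called below 0. Had1 was the 1 fat body gene of 12 called (interaction 1.37, adjusted p = 0.0416).

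No gene was called in the interaction, by limma, in the lists for insulin signalling (14 genes), synthesis, storage and mobilisation of fat (21), takeout family (21), juvenile hormone and ecdysone (22), heat shock (16), sirtuins (8), digestive serine peptidases (28), maltases and amylases (15), Turandot genes (8) and midgut (10). The same held for oogenesis (39), yolk (4), DNA replication (26), cytosolic ribosomal proteins (39), mitochondrial ribosomal proteins (69), oxidative phosphorylation (64), proteasome (27), neurons and synapses (20), neuropeptides (25), photoreceptors (15) and larval serum proteins (3). Over these 21 lists 68 memberships above and 38 below 0 of 494 had an unadjusted p under 0.05, a gene counting once in each list that holds it. Of all 9976 genes tested, 997 above and 855 below 0 did, so that these counts are not read as a result about the lists. The median interactions of the lists ran from -0.47 in photoreceptors to 0.40 in digestive peptidases. With the replicate block 2 digestive peptidases were called above 0, as was 1 photoreceptor gene, and 1 gene each of the heat shock, Turandot, maltase and neuropeptide lists was called below 0.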

How the data were processed

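RNA of whole females was measured on Affymetrix Drosophila 2.0 arrays, and the study describes the 3 arrays of a group as independent biological replicates. The deposited log2 values were made by the authors with quantile normalization and GCRMA (version not given in the sources used here) and were used unchanged. Of 18952 probesets 183 controls were left out, and of the rest 13647 name 1 gene (13544 matched to the RefSeq gene table), 402 several and 4720 have no entry and are unnamed here. Probesets at or below the 25th percentile, which equals the floor, in all 4 groups were left out, which kept 13549. limma 3.58.1 in R 4.3.3 fitted the 4 group means on all 12 arrays (8 residual degrees of freedom), with Benjamini-Hochberg adjustment over all probesets kept. A gene was called from any probeset naming it alone and takes the value of that probeset, or otherwise of its brightest. Figures and summaries used Python 3.11.15, pandas 2.3.3, numpy 2.4.6, scipy 1.17.1 and matplotlib 3.10.9. The fit was tested on simulated data.

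Genes were named by rule: p53, Sirt1 and the study's shared genes, the 12 largest called interactions in each direction, the 5 largest rises and falls at each age, and up to 4 called members of each list. TwdlG, TwdlL, Cpr64Ad, Cpr51A, Cpr100A, hll, Osi6, Osi19, Cht7, verm, Cda4, Gasp, CG7829, Cp36, Idgf1, Hmr, Su(var)2-HP2, sov, stwl and the named genes of male organs were added after their values were seen. Members and lists were chosen with earlier results of these data known. The sample titles give replicate numbers but do not state that these pair the arrays within an age. Deviations of same-numbered arrays from their group means correlated at 0.61, 0.42 and 0.76 at day 10 and at 0.30, 0.28 and 0.20 at day 40. At day 10 control replicate 2 correlated at 0.48 with DN-Dmp53 replicate 1, and control replicate 1 at 0.43 with DN-Dmp53 replicate 2. Day 40 arrays of unlike number correlated at -0.22 to -0.0017. Deviations cancel within a group, so that positive values at like numbers force some negative ones at unlike numbers, which are no separate evidence of pairing. The fit with the replicate number as a block is given beside the effects it moves across the threshold. The alternatives tried were no filter and a stricter one, all 14 groups together, the block, array weights, a mean-variance trend, quantile normalization again, centring, the methods' t-test and leaving out each array, and after seeing the data also leaving out DN-Dmp53 day 40 replicates 1 and 3 together. Precision was limited by the number of arrays.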

Additional observations from a re-analysis of the deposited data

Results flagged for a closer look

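The effect of DN-Dmp53 differed between day 10 and day 40, by limma's test of the interaction, in each gene named here. Values are on the log2 scale, positive where DN-Dmp53 minus control was higher at day 40. The first 34 genes kept their call without each of the 12 arrays in turn.

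Among genes of the cuticle and of chitin, the interaction was at least 8.22 for TwdlF, 7.96 for Lcp65Ag3, 6.29 for TwdlM, 6.13 for TwdlB, 6.05 for TwdlN, 5.66 for TwdlG, 5.28 for TwdlL, 4.96 for Cpr64Ad, 4.87 for Cpr51A, 0.65 for Cpr100A, 4.40 for Cht7, 3.38 for Cda4, 2.85 for verm and 2.36 for Gasp. Osi14 had 5.82, and CG2962, CG9083, CG30413 and CG17290, which have no role given here, had 8.71, 6.79, 6.58 and 5.92. Other positive values were 3.78 for lectin-24A, 2.05 for CG7829, 1.22 for Su(var)2-HP2 and 1.12 for Hmr. Negative values were -6.44 for CG17234, -5.57 for Send2, -3.13 for CG13075, -3.07 for CG3739, -2.52 for CG42397, -2.46 for CG44014, -2.18 for CG18609, -1.71 for CG16898, -1.57 for tim, -0.77 for Obp18a and -0.67 for Cyp6a13.

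The calls of 22 further genes were lost without at least 1 array, although no sign changed. Osi15 (7.85), Osi9 (5.77), Osi20 (5.44) and Osi19 (4.01) kept their call in 7, 6, 8 and 5 of the 12 fits. CG16995 (-2.16) kept it in 5, CG14687 (-0.79), vri (-1.17), BomS6 (-1.27) and sov (1.53) in 4, and CG12780 (-2.08), MtnA (-0.96), Ugt36A1 (-0.92) and Idgf1 (-1.38) in 3. Syngr (-0.92), CG14495 (-1.76), Cyp4ac3 (-1.22), Obp19c (1.97), yellow-g2 (1.64), Had1 (1.37) and stwl (1.26) kept it in 2, and CG4267 (-2.02) and Mlp60A (0.66) in 1. Over the fits that leave out 1 array the adjusted p of Osi15 ran from 0.000294 to 0.0641 and that of Mlp60A from 0.0306 to 0.12.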

How the results depend on the processing

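The interaction count of 191 was 126 without a filter, 296 with the 50th percentile as the filter, 406 in a fit of all 14 groups, 289 with array weights and 425 with arrays centred (118 above and 307 below 0). It lay within 1.5 times the main count under the other settings, with 213 under the replicate block, 84 of whose positive and 42 of whose negative calls were shared with the main fit. Leaving out 1 array gave 104 to 208, with 117 without control day 10 replicate 1 and 104, 106 and 119 without DN-Dmp53 day 10 replicates 1, 2 and 3. The day 10 count of 196 was 303 with all 14 groups, 417 with array weights, 296 by the methods' t-test and 120 by that test after Benjamini-Hochberg adjustment, and centring gave 294 (184 higher, 110 lower). Without 1 array it was 93 to 217, with 123 without control day 10 replicate 1 and 102 and 93 without DN-Dmp53 day 10 replicates 1 and 2. The day 40 count of 70 was 28 without a filter, 204 with the 50th percentile, 289 with all groups, 46 with array weights, 156 when centred (61 higher, 95 lower), 133 without a fold limit, 1 on the 6 day 40 arrays alone and 0 by the methods' t-test after adjustment (86 before it). Quantile normalization again gave 86, of which 30 were higher and 56 lower. Without 1 array it was 19 to 135, the last without control day 40 replicate 3, and it moved by over 1.5 times in all of these fits but those without control day 40 replicate 1 (80) or DN-Dmp53 day 40 replicate 2 (59). Without both DN-Dmp53 day 40 replicates 1 and 3, where the lone array is assumed to vary like the other groups, the counts were 277, 153 and 79, and 78 of the 114 positive and 60 of the 77 negative interaction calls were kept.

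Between 21 and 24 cuticle genes were called above 0 in the interaction in every setting. Of the 56 interaction calls of named genes, 34 were kept without each array in turn, 26 of these also in the 8 other settings across all genes, and 41 without both day 40 arrays. The replicate block ended 18 of the 56 and changed no other interaction call of a named gene but those of ninaD, CG9825 and CG3091, which it gained. Among named genes other than CG13928 and Mipp1, it ended 12 of the 45 day 10 calls and 12 of the 20 day 40 calls. No called interaction changed sign. The p53 interaction, not called, ran from -0.0451 to 0.0545 without 1 array and was 0.0007 without both, and that of Nplp3 from -0.55 to 0.25. The causes of these shifts were not tested, beyond the fewer genes or arrays that some settings hold. Changes within about 1 log2 unit of the floor are limited by it, and 3 arrays a group limit the rest.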

Other observations

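Su(var)2-HP2, Hmr, sov and stwl, 4 genes whose proteins act on chromatin or silencing, were picked after their values were seen and stand for no list. Su(var)2-HP2, a partner of heterochromatin protein HP1, read 7.68, 7.88 and 7.68 in day 40 controls and 8.55, 8.81 and 8.57 with DN-Dmp53, a rise of 0.90 (adjusted p = 0.0244 by limma), and 9.24 to 9.66 against 8.96 to 9.23 at day 10. Hmr, a hybrid-incompatibility protein of centromeric chromatin, read 7.92, 8.07 and 8.03 against 8.76, 8.99 and 8.75 at day 40, a rise of 0.83 (adjusted p = 0.024), and 8.99 to 9.32 against 8.65 to 8.95 at day 10. The day 10 groups of both genes did not overlap either, with differences of -0.32 and -0.29 that were not called (adjusted p = 0.291 and 0.284). In both genes the day 40 controls lay below the 9 other arrays, and the interactions were 1.22 (adjusted p = 0.0132) and 1.12 (adjusted p = 0.011). sov rose by 1.40 at day 40 (adjusted p = 0.0244, and 0.0533 with the replicate block) with an interaction of 1.53 (adjusted p = 0.0309, and 0.0661 with the block). stwl, a germline chromatin protein, differed by 0.87 at day 40 (adjusted p = 0.0592) with an interaction of 1.26 (adjusted p = 0.0443, and 0.0606 with the block). Without DN-Dmp53 day 40 replicates 1 and 3 the day 40 call of Hmr was kept (adjusted p = 0.0484) and those of Su(var)2-HP2 and sov were lost (0.0576 and 0.0745).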
